A study of Mus musculus with 18 samples.

Results

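The 40 genes described here encode proteins of the G2/M transition and of mitosis. They were taken by gene symbol from a table of raw read counts with 24527 entries, in which all 40 symbols were found, and all 40 passed the low-count filter that left 13827 genes for testing. RNA had been sequenced from PD454, PD7591 and PD883, lines of mouse pancreatic ductal adenocarcinoma with a mixed strain background. Each line was cultured for 48 h with 2.5 µM ionomycin, an ionophore that lets calcium into cells, with TGFb at 10 ng/ml, a cytokine known to induce epithelial-mesenchymal transition in carcinoma cells, or with DMSO, the solvent control, in a medium that held insulin, dexamethasone, cholera toxin and nicotinamide in every group. There were 2 libraries for each of the 9 groups, so 6 libraries per treatment and 18 in all, each named here by treatment, line and library number. The labels give neither the driver mutations of the lines nor whether the 2 libraries of a group came from separate cultures. So p-values measure the spread between these libraries, which may be technical. In the contrasts over the 3 lines that spread also holds differences of the treatment effect between lines.

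A cell enters mitosis when cyclin-dependent kinase 1 (Cdk1), bound to cyclin B, is freed of inhibitory phosphates by Cdc25 phosphatases. Mitotic kinases, kinesin motors and kinetochore proteins then build the spindle and attach the chromosomes, the spindle checkpoint holds the anaphase-promoting complex back until attachment is complete, and a contractile ring divides the cell. The genes for these proteins are switched on together late in the cell cycle by the B-Myb-MuvB complex and the forkhead factor Foxm1 and are held down in resting cells by the DREAM complex, and DREAM and B-Myb-MuvB bind a short promoter element called CHR. TGFb is known to halt many epithelial cells in G1, and pancreatic carcinomas often lose that response.

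Library totals ran from 17591005 to 37894692 counts, and the lowest count of any of the 40 genes in any library was 299. Together the 40 genes took 0.546% to 0.715% of the counts in ionomycin libraries, 0.242% to 0.471% in TGFb libraries and 0.364% to 0.815% in DMSO libraries. Duplicates of PD883 stood apart from each other. With TGFb, library 12 was above library 11 for 38 of the 40 genes, and with DMSO, library 8 was above library 7 for 39 of 40. The mean log2 CPM of the 40 genes was 5.59 in TGFb PD883 11 and 6.21 in TGFb PD883 12, and it was 6.14 in DMSO PD883 7 and 6.93 in DMSO PD883 8 (CPM, counts scaled to library size with TMM factors so that libraries can be compared). Short transcripts were over-represented in DMSO PD454 14, DMSO PD883 8, TGFb PD883 12 and TGFb PD454 18, where log2 CPM minus the gene mean correlated with exon length at r of -0.196, -0.194, -0.179 and -0.0954 across genes, which are not independent replicates. In the other 14 libraries r ran from -0.0507 to 0.136, and no ionomycin library was among these 4. Summed epithelial markers stood at 5355 to 9693 CPM with ionomycin, 3910 to 6906 CPM with TGFb and 4857 to 7688 CPM with DMSO, and of the 8 markers 4 fell and 1 rose with TGFb (median log2 fold change -0.68). Fibroblast markers, a list of 6 collagen, matrix and receptor genes, summed to 6.97 to 101 CPM with TGFb, against 2.02 to 5.81 CPM with DMSO, and 2 of the 5 tested rose. Immune markers summed to 8.37 to 29.3 CPM with ionomycin, against 3.49 to 5.87 CPM with DMSO, and 1 of 3 tested rose. Endothelial markers summed to 0.470 to 3.43 CPM with ionomycin, against 0.318 to 0.823 CPM with DMSO, and 3 of 3 tested rose. Acinar markers summed to 2.11 to 6.18 CPM with TGFb, against 0.0436 to 1.41 CPM with DMSO, and the 1 tested rose, while endocrine markers were at or under 0.30 CPM in every library. The part of these markers in the results below was not tested.

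The promoters are shown first, as a description, and a link from their letters to the changes below was not tested. RefSeq entries from 250 bases before to 50 bases after an annotated start were at hand for 32 of the 40 genes (build GRCm38.p6). The CHR letters TTTGAA or TTTAAA, read on either strand, occurred in 26 of the 32 entries (81.2%), against 30.6% of the 27025 genes with an entry. The CCAAT box letters CCAAT, read on either strand, occurred in 24 of 32 (75.0%), against 41.1%, and both kinds in 21 of 32 (65.6%), against 12.2%. A CHR match and a CCAAT match can share no more than an end base. CHR letters lay within bases 1 to 50 after the start in 16 of the 32 genes and in 4.21% of all genes, and within bases -50 to -1 in 28.1% and 6.16%. CCAAT letters lay within bases -50 to -1 in 53.1% and in 10.7%. A match is a description of the letters and not a bound site. The 150 bases just before the start are printed for 8 members on which the results turn, 5′ to 3′ on the gene's own strand, and capitals mark the CHR letters and the CCAAT letters on either strand. Matches elsewhere in the entry, such as those after the start, are not printed. Anln and Ccnb2 each had 2 CHR matches in the whole entry, all outside the printed stretch.
Ccnb2 (chr9:70421555-70421704, minus strand): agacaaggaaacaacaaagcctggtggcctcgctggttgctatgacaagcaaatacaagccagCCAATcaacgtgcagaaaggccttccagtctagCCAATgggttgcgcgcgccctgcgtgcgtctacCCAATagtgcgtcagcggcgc
Plk1 (chr7:122159285-122159434, plus strand): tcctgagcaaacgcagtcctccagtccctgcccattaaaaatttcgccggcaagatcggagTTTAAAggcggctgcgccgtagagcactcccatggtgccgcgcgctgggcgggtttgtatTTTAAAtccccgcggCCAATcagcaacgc
Cdc20 (chr4:118437344-118437493, minus strand): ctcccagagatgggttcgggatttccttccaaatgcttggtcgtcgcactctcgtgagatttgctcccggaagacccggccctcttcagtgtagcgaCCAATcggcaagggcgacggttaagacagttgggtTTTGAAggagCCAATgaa
Kif11 (chr19:37376232-37376381, plus strand): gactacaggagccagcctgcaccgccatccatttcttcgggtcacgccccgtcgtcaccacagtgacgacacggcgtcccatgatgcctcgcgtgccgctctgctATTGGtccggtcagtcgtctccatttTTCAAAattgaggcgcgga
Mki67 (chr7:135716380-135716529, minus strand): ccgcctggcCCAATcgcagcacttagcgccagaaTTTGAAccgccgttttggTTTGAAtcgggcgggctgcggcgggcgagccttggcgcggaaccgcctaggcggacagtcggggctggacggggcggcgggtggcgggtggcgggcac
Top2a (chr11:99024190-99024339, minus strand): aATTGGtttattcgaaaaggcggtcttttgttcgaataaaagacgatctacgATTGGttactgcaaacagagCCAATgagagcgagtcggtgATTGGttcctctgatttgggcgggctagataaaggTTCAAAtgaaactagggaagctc
Anln (chr9:22389207-22389356, minus strand): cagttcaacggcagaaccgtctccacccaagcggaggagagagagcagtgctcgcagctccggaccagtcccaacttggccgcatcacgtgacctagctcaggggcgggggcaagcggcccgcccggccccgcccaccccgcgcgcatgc
Cdc25b (chr2:131186798-131186947, plus strand): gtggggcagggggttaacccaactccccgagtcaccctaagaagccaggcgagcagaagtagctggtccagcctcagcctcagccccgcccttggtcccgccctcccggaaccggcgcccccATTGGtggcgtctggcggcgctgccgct
Cdk1 and Cenpa, which were among the members with the smallest differences below, each had 2 CHR matches in the whole entry. Mki67, Ect2 and Anln, which were among the members with the largest falls with TGFb, also had 2 each, and Kif11 had 1. Cdc25b, the member that differed most between the treatments, had none. With TGFb the median log2 fold change was -0.76 for the 26 members with a CHR match and -0.76 for the 6 without one.

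**Figure D1:**
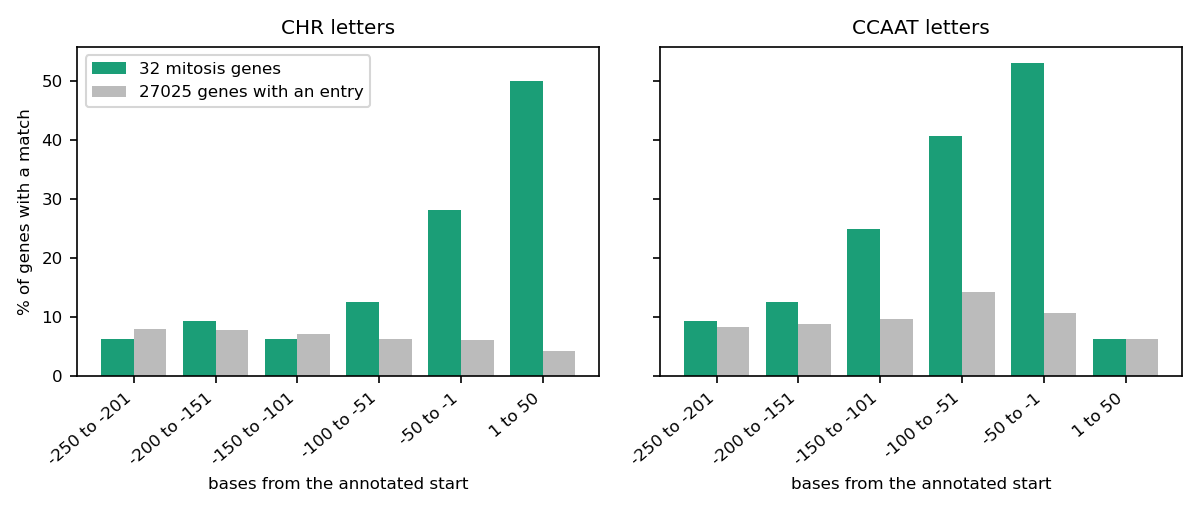
Percent of genes (y axis) with a CHR match (left) or a CCAAT match (right) in each 50-base bin from the annotated start (x axis), for the 32 mitosis genes with an entry (green) and for all 27025 genes with an entry (grey). The mitosis genes stand highest from bases 1 to 50 for CHR (16 of 32) and from -50 to -1 for CCAAT (53.1%), while the grey bars stay at or under 14.3%.

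With TGFb the mitosis genes were lower nearly throughout. Of the 40 members 35 fell and none rose against DMSO at an adjusted p under 0.05 (edgeR quasi-likelihood F test with line as a block, Benjamini-Hochberg over all genes tested), while 26.5% of all genes tested fell and 24.3% rose. All 40 estimates were negative, so no member was higher at an unadjusted p under 0.05 either, and DESeq2 and limma-voom also called 0 higher. The median log2 fold change of the 40 was -0.75, against -0.00 over all genes tested, and the range was -1.49 for Mki67 to -0.19 for Cenpa. Whether fewer cells were in mitosis or each cell held less of these RNAs cannot be told apart in bulk RNA. The fits with libraries left out that follow are given without the share of all genes in the same fit. Their counts show only how far the number of members moved. Over 18 fits that each left out 1 library the number of members that fell ran from 30 to 39. Without DMSO PD883 7 and TGFb PD883 11, the lower libraries of the uneven PD883 pairs, 39 members fell, and 29 fell once the 4 short-transcript libraries were left out.

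**Figure D2:**
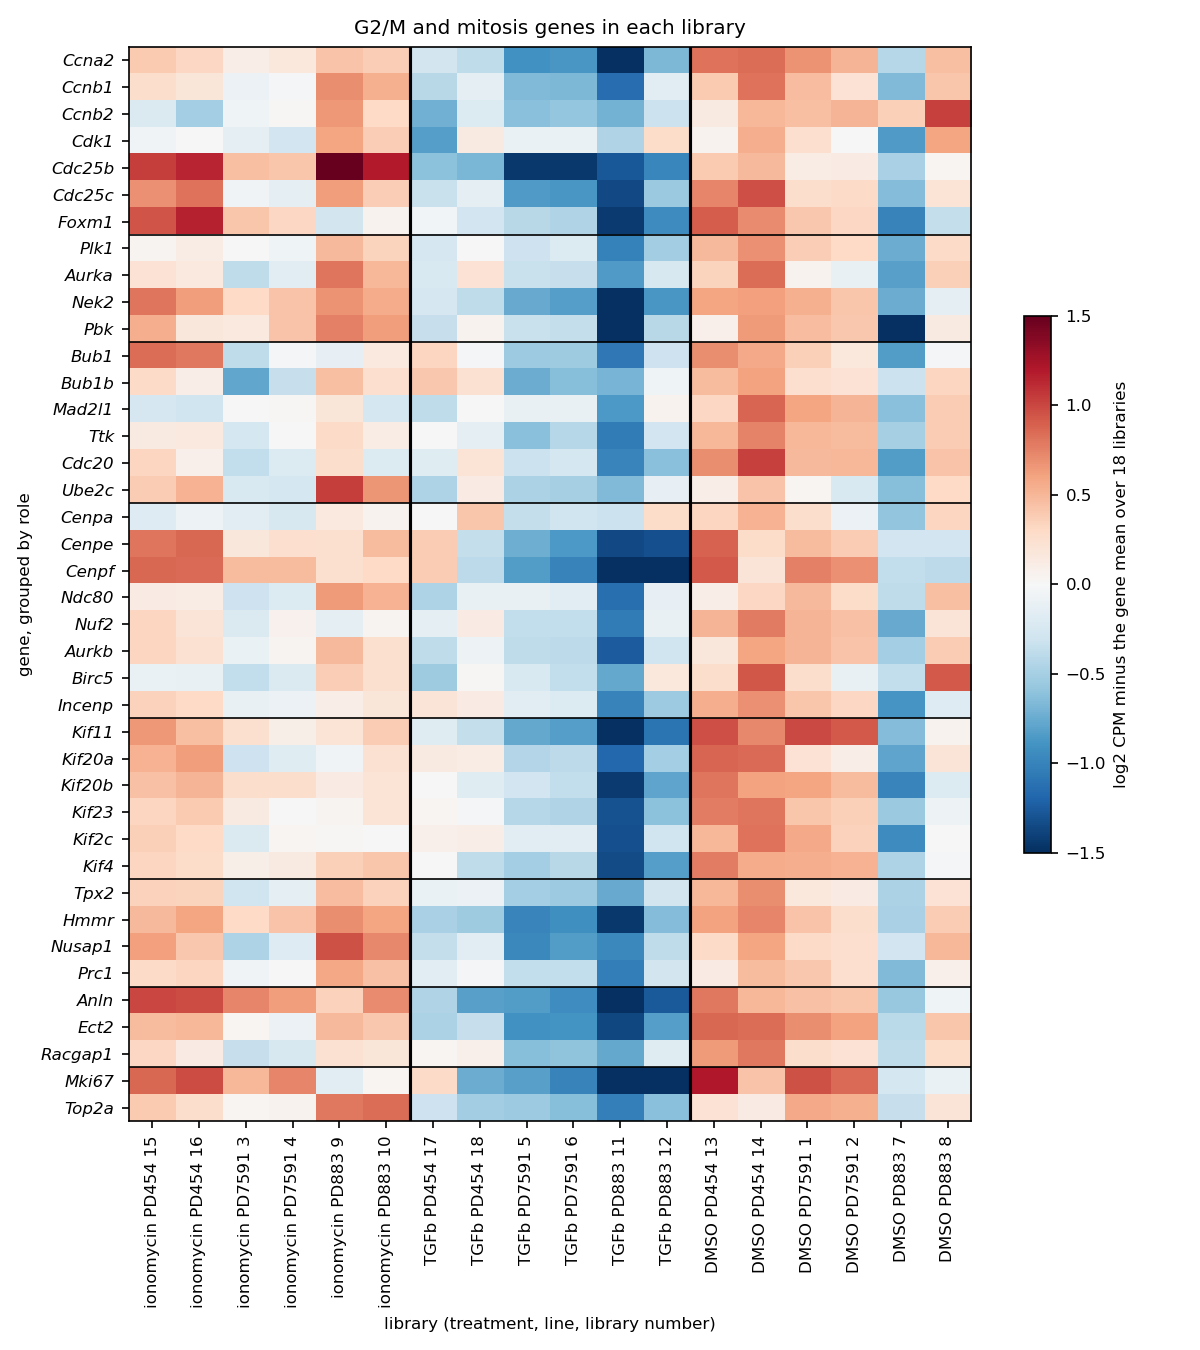
Level of each of the 40 genes (rows, grouped by role) in each of the 18 libraries (columns), as log2 CPM minus the gene's mean over all libraries (colour scale from -1.5, blue, to 1.5, red). TGFb columns are blue for most genes and palest in PD454, TGFb PD883 11 is the darkest column, and DMSO PD883 7 is blue for nearly all genes, where DMSO PD883 8 is mostly red or pale.

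Among the 7 genes of the cyclin-CDK1 switch 6 fell with TGFb. Cyclin A2 (Ccna2), which acts in S phase and at mitotic entry, stood at 68.5, 113 and 160 CPM (lowest, median and highest of 6 libraries) with TGFb, against 144, 293 and 345 CPM with DMSO. The ranges overlapped in DMSO PD883 7 alone, and the log2 fold change was -1.26 ± 0.17 (SE, adjusted p = 4.68e-06). Cyclin B2 (Ccnb2), a partner of Cdk1 found largely at the Golgi, stood at 42.3, 46.1 and 60.7 CPM with TGFb, against 76.9, 97.4 and 143 CPM with DMSO. These ranges did not overlap, and the log2 fold change was -1.02 ± 0.15 (adjusted p = 1.74e-05). Cyclin B1 (Ccnb1), the partner of Cdk1 that enters the nucleus at mitosis, stood at 50.7, 77.0 and 102 CPM with TGFb, against 70.7, 148 and 197 CPM with DMSO, a log2 fold change of -0.83 ± 0.20 (adjusted p = 0.00195). DMSO PD883 7 fell within the TGFb range, and the other 5 DMSO libraries lay above it. Cdk1 itself was not called. It stood at 38.0, 62.7 and 81.3 CPM with TGFb, against 37.5, 75.0 and 101 CPM with DMSO, with a log2 fold change of -0.31 ± 0.22 (adjusted p = 0.247) and wide overlap.

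The phosphatases that activate Cdk1 fell as well. Cdc25b stood at 27.9, 35.2 and 49.9 CPM with TGFb, against 54.6, 82.4 and 107 CPM with DMSO. These ranges did not overlap, and the log2 fold change was -1.21 ± 0.16 (adjusted p = 5.27e-06). Cdc25c stood at 13.9, 21.9 and 31.9 CPM with TGFb, against 22.6, 42.9 and 69.1 CPM with DMSO, a log2 fold change of -1.005 ± 0.17 (adjusted p = 7.90e-05). Foxm1, a transcription factor of this gene set, stood at 76.7, 154 and 203 CPM with TGFb, against 104, 267 and 391 CPM with DMSO, a log2 fold change of -0.77 ± 0.13 (adjusted p = 6.48e-05). For Cdc25c the overlap came from DMSO PD883 7 alone, and for Foxm1 from both PD883 libraries with DMSO.

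Of the 4 genes grouped here as mitotic kinases 2 fell with TGFb. Other kinases among the members, such as Cdk1, Bub1, Ttk and Aurkb, are counted under other roles. Polo-like kinase 1 (Plk1), which acts in centrosome maturation, spindle assembly and cytokinesis, stood at 49.6, 82.5 and 101 CPM with TGFb, against 59.6, 126 and 162 CPM with DMSO, a log2 fold change of -0.64 ± 0.18 (adjusted p = 0.00684). Nek2, a kinase that separates centrosomes, stood at 39.5, 67.4 and 98.1 CPM with TGFb, against 69.7, 163 and 179 CPM with DMSO, with a log2 fold change of -1.001 ± 0.17 (adjusted p = 5.91e-05). Aurora A (Aurka), the kinase of the spindle poles, had a log2 fold change of -0.44 ± 0.21 (adjusted p = 0.0926), and the kinase Pbk one of -0.58 ± 0.26 (adjusted p = 0.0685), so neither was called.

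Of the 6 genes of the spindle checkpoint and the anaphase-promoting complex 5 fell with TGFb. Their log2 fold changes were -0.52 for the checkpoint kinase Bub1 (adjusted p = 0.0109), -0.52 for Bub1b (adjusted p = 0.0181) and -0.60 for Mad2l1 (adjusted p = 0.0115), which act in the inhibitory checkpoint complex. They were -0.78 for the checkpoint kinase Ttk (adjusted p = 5.997e-04) and -0.79 for Cdc20 (adjusted p = 0.00177), the activator that the checkpoint holds back. Ube2c, the ubiquitin-conjugating enzyme of the anaphase-promoting complex, was the exception. It stood at 75.5, 86.8 and 131 CPM with TGFb, against 77.1, 125 and 161 CPM with DMSO, a log2 fold change of -0.36 ± 0.19 (adjusted p = 0.111), and the ranges overlapped widely. Exons of Ube2c share 22.8% of their length with Tnnc2 on the other strand, and the strand mode of the counting is not given in the sources used here. Over all libraries Tnnc2 had 519 counts, against 49933 for Ube2c.

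At the centromere and kinetochore 7 of 8 genes fell with TGFb. Aurora B (Aurkb), the kinase of the chromosomal passenger complex, stood at 23.1, 42.2 and 52.1 CPM with TGFb, against 38.6, 72.8 and 83.0 CPM with DMSO, a log2 fold change of -0.73 ± 0.18 (adjusted p = 0.00204). Survivin (Birc5), of the same complex, stood at 35.4, 48.9 and 67.2 CPM with TGFb, against 46.5, 72.2 and 115 CPM with DMSO, a log2 fold change of -0.63 ± 0.20 with an adjusted p = 0.0142. The scaffold of that complex, Incenp, showed the smallest fall among the 35 called genes, at -0.43 ± 0.16 on the log2 scale (adjusted p = 0.0282). The large kinetochore proteins Cenpe, a motor, and Cenpf fell by 0.94 and 1.12 on the log2 scale (adjusted p = 1.04e-04 and 6.04e-05), and Ndc80 and Nuf2, which hold microtubules, by 0.54 and 0.61 (adjusted p = 0.0291 and 0.00540). Cenpa, the centromeric histone H3 variant, showed the smallest difference of the 40. It stood at 49.3, 57.2 and 84.3 CPM with TGFb, against 41.9, 77.2 and 90.4 CPM with DMSO, and the lowest library of all was DMSO PD883 7 (log2 fold change -0.19 ± 0.16, adjusted p = 0.324).

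All 6 kinesin motors fell with TGFb. Kif11, which pushes the spindle poles apart, stood at 35.2, 69.0 and 106 CPM with TGFb, against 76.3, 213 and 238 CPM with DMSO, and its log2 fold change of -1.35 ± 0.19 (adjusted p = 7.88e-06) was the second largest fall of the 40. The ranges overlapped through DMSO PD883 7 alone. The other motors had log2 fold changes of -0.90 for Kif4, a chromokinesin (adjusted p = 1.31e-04), -0.75 for Kif23 (adjusted p = 2.04e-04) and -0.75 for Kif20b (adjusted p = 8.21e-04). They were -0.63 for Kif20a (adjusted p = 0.00251) and -0.52 for Kif2c, which takes microtubules apart (adjusted p = 0.0223). Kif20a shares 29.3% of its exon length with Cdc23 on the other strand and Kif4 15.1% with Pdzd11. Over all libraries Cdc23 had 32425 counts, against 71335 for Kif20a, and Pdzd11 had 8980, against 24291 for Kif4. Whether Kif20a and Kif4 gained or lost reads in the shared stretches cannot be told without the strand setting.

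The 4 spindle and midzone genes also fell with TGFb. Hmmr, a microtubule-binding receptor of hyaluronan, stood at 41.9, 66.6 and 81.4 CPM with TGFb, against 81.7, 152 and 190 CPM with DMSO, so the groups met without overlapping, and the log2 fold change was -1.17 ± 0.16 (adjusted p = 4.84e-06). The log2 fold changes were -0.90 for Nusap1, which bundles microtubules (adjusted p = 4.31e-04), -0.60 for Tpx2, which activates Aurora A (adjusted p = 0.00158), and -0.50 for Prc1, which bundles the midzone (adjusted p = 0.0207).

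The 3 cytokinesis genes fell too, with a median log2 fold change of -1.24 against -0.75 over all 40. Anillin (Anln), the scaffold of the contractile ring, had the smallest p of the 40 genes. It stood at 77.7, 128 and 173 CPM with TGFb, against 159, 316 and 407 CPM with DMSO, a log2 fold change of -1.24 ± 0.12 (adjusted p = 1.23e-07), and TGFb PD454 17 was the one library above the lowest DMSO library. Ect2, the exchange factor that activates RhoA at the cleavage furrow, stood at 74.6, 106 and 152 CPM with TGFb, against 146, 303 and 351 CPM with DMSO, a log2 fold change of -1.33 ± 0.16 (adjusted p = 1.48e-06). Its partner Racgap1 had a log2 fold change of -0.66 (adjusted p = 5.44e-04).

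Mki67 and Top2a, the proliferation marker Ki-67 and the topoisomerase that untangles chromosomes, fell with TGFb. Mki67 stood at 103, 207 and 471 CPM with TGFb, against 322, 607 and 888 CPM with DMSO, and its log2 fold change of -1.49 ± 0.18 (adjusted p = 1.25e-06) was the largest fall of the 40. TGFb PD454 17, at 471 CPM, lay above both PD883 libraries with DMSO and far above its own duplicate at 230.2 CPM. Top2a stood at 270.2, 365 and 443 CPM with TGFb, against 430.1, 632 and 811 CPM with DMSO, a log2 fold change of -0.84 ± 0.18 (adjusted p = 5.88e-04).

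**Figure D3:**
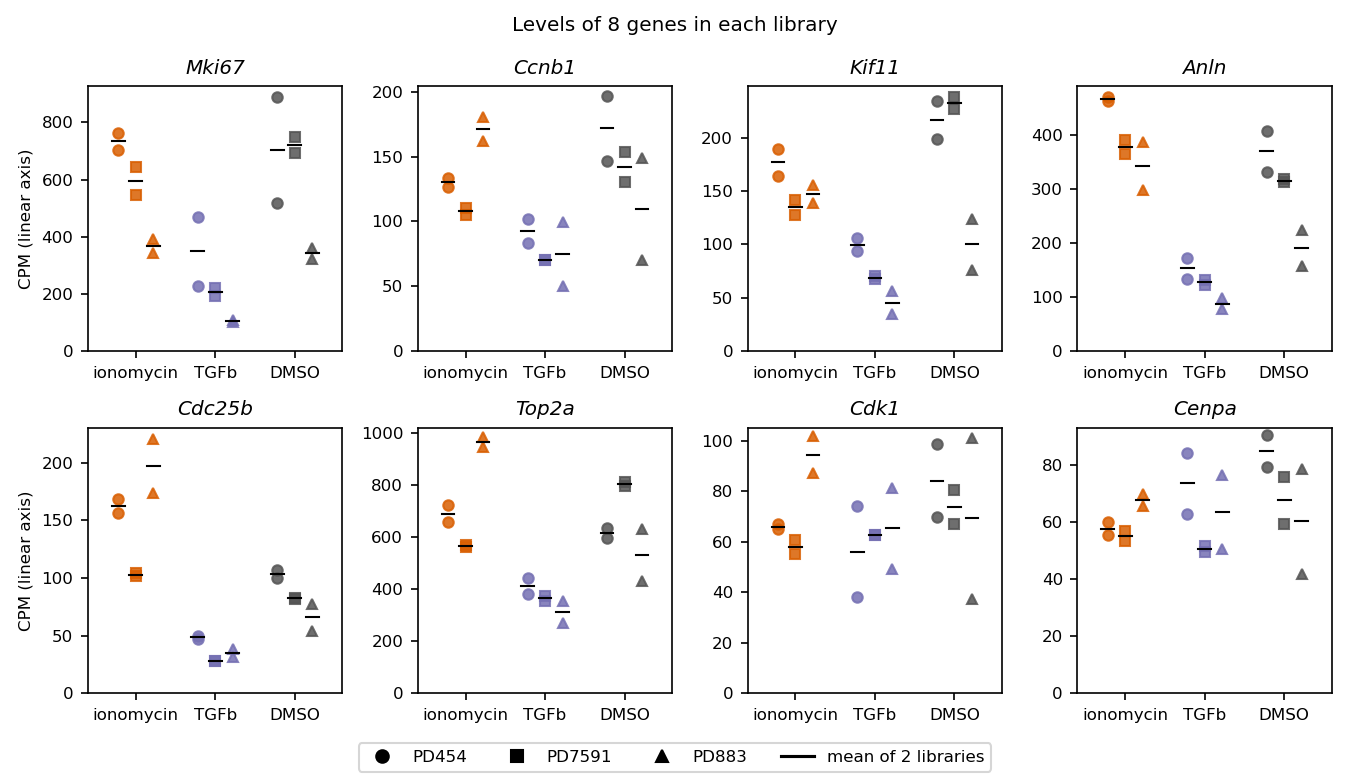
CPM (y axis, linear, from 0) of 8 genes in each library, by treatment from left to right and by line (circle PD454, square PD7591, triangle PD883), with a bar at the mean of the 2 libraries of a group. For Cdc25b all 6 TGFb libraries (27.9 to 49.9 CPM) lie under all 6 DMSO libraries (54.6 to 107 CPM), while for Cdk1 and Cenpa the groups overlap widely.

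The same direction was found in each line. With TGFb 39 of the 40 members had a negative estimate in all 3 lines, against 32.3% of all genes tested, and Cenpa, at 0.07 ± 0.25 in PD883, was the exception. Within PD454 22 members fell with TGFb, with a background of 16.1% of all genes, within PD7591 28 fell, with a background of 20.1%, and within PD883 16 fell, with a background of 20.0%. None rose in any line with edgeR, and the medians were -0.71, -0.86 and -0.62 in PD454, PD7591 and PD883. In PD454 the largest fall was that of Anln (log2 fold change -1.27). Mki67 had the largest fall in PD7591, with 220.2 and 194 CPM with TGFb, against 749 and 695 CPM with DMSO (log2 fold change -1.80). It also had the largest in PD883, with 109 and 103 CPM with TGFb, against 322 and 362 CPM with DMSO (log2 fold change -1.69). Counts of fits with libraries left out follow without the share of all genes in the same fit, so they show only how far a count moved. The PD883 count rested on the uneven duplicates, with 33 members lower without DMSO PD883 7, 9 without DMSO PD883 8, 30 without TGFb PD883 12 and 22 without DMSO PD883 7 and TGFb PD883 11 together. The PD454 count was 10 without TGFb PD454 18, and the PD7591 count was 17 without TGFb PD7591 5 and 18 without TGFb PD7591 6.

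Duplicates did not overlap between TGFb and DMSO in any of the 3 lines, with TGFb lower, for 13 members, a pattern shown by 17.5% of all genes tested. The 13 were Ccna2, Ccnb2, Cdc25b, Nek2, Kif11, Kif23, Kif4, Hmmr, Nusap1, Anln, Ect2, Mki67 and Top2a. For Ccnb2, Cdc25b and Hmmr all 6 TGFb libraries lay below all 6 DMSO libraries, a pattern shown by 9.41% of all genes, and no member showed the reverse, which 8.21% of all genes did. In a single test over the 3 lines (2 degrees of freedom) of whether the TGFb effect was equal, edgeR called 0 of the 40 members, against 5.26% of all genes. DESeq2 and limma-voom also called 0. With edgeR 2 members had an unadjusted p under 0.05, a threshold for which no share over all genes is given. The smallest adjusted p were those of Cenpf (0.132), Cdc25b (0.222), Bub1b (0.330), Kif11 (0.333), Top2a (0.336) and Cenpe (0.346). Cenpf had log2 fold changes of -0.56 ± 0.23 in PD454, -1.63 ± 0.23 in PD7591 and -1.20 ± 0.23 in PD883.

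With ionomycin few mitosis genes were called over the 3 lines, whose estimates differed in sign. The median log2 fold change of the 40 members was -0.29 in PD454, -0.39 in PD7591 and 0.52 in PD883, and -0.05 over the lines, against -0.03 over all genes. The ionomycin contrast shares its DMSO libraries with the TGFb contrast, so the values of each are given side by side and no overlap between them is drawn on. Of the 40 members 2 rose and 1 fell with ionomycin against DMSO, while 17.2% of all genes tested rose and 16.1% fell. For the fits with libraries left out that follow, the share of all genes is not given. The number that fell was not stable, with 9 without DMSO PD883 7, 0 without DMSO PD883 8 and 20 without line PD883. With library totals in place of TMM factors 3 members fell, the median of the members was -0.13 against -0.12 over all genes, and 39.3% of all called genes were higher, against 51.6% with TMM factors.

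Cdc25b, the phosphatase that starts Cdk1 activation, rose with ionomycin. It stood at 102, 163 and 221 CPM (lowest, median and highest of 6 libraries) with ionomycin, against 54.6, 82.4 and 107 CPM with DMSO, a log2 fold change of 0.85 ± 0.16 with an adjusted p = 5.86e-04. The ionomycin duplicates lay above the DMSO duplicates in each line. Anln also rose, with 298, 389 and 471 CPM with ionomycin, against 159, 316 and 407 CPM with DMSO, a log2 fold change of 0.48 ± 0.12 (adjusted p = 0.00554). These were the only members whose ionomycin duplicates lay above the DMSO duplicates in each line, a pattern of 12.2% of all genes, and no member showed the reverse, which 10.4% of all genes did. For no member did all 6 ionomycin libraries lie above or below all 6 DMSO libraries, as 4.54% and 2.69% of all genes did. Ccnb2 fell, in the same role group as Cdc25b, with 49.2, 68.7 and 110 CPM with ionomycin, against 76.9, 97.4 and 143 CPM with DMSO, a log2 fold change of -0.47 ± 0.15 (adjusted p = 0.0226). Both PD883 libraries with ionomycin lay within the DMSO range, and the other 4 ionomycin libraries lay below it. Its call was lost without ionomycin PD454 15 (adjusted p = 0.0539), ionomycin PD454 16 (0.0672), DMSO PD454 14 (0.0507) or DMSO PD883 8 (0.0870), while Cdc25b and Anln were called in all 18 fits that left out 1 library.

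**Figure D4:**
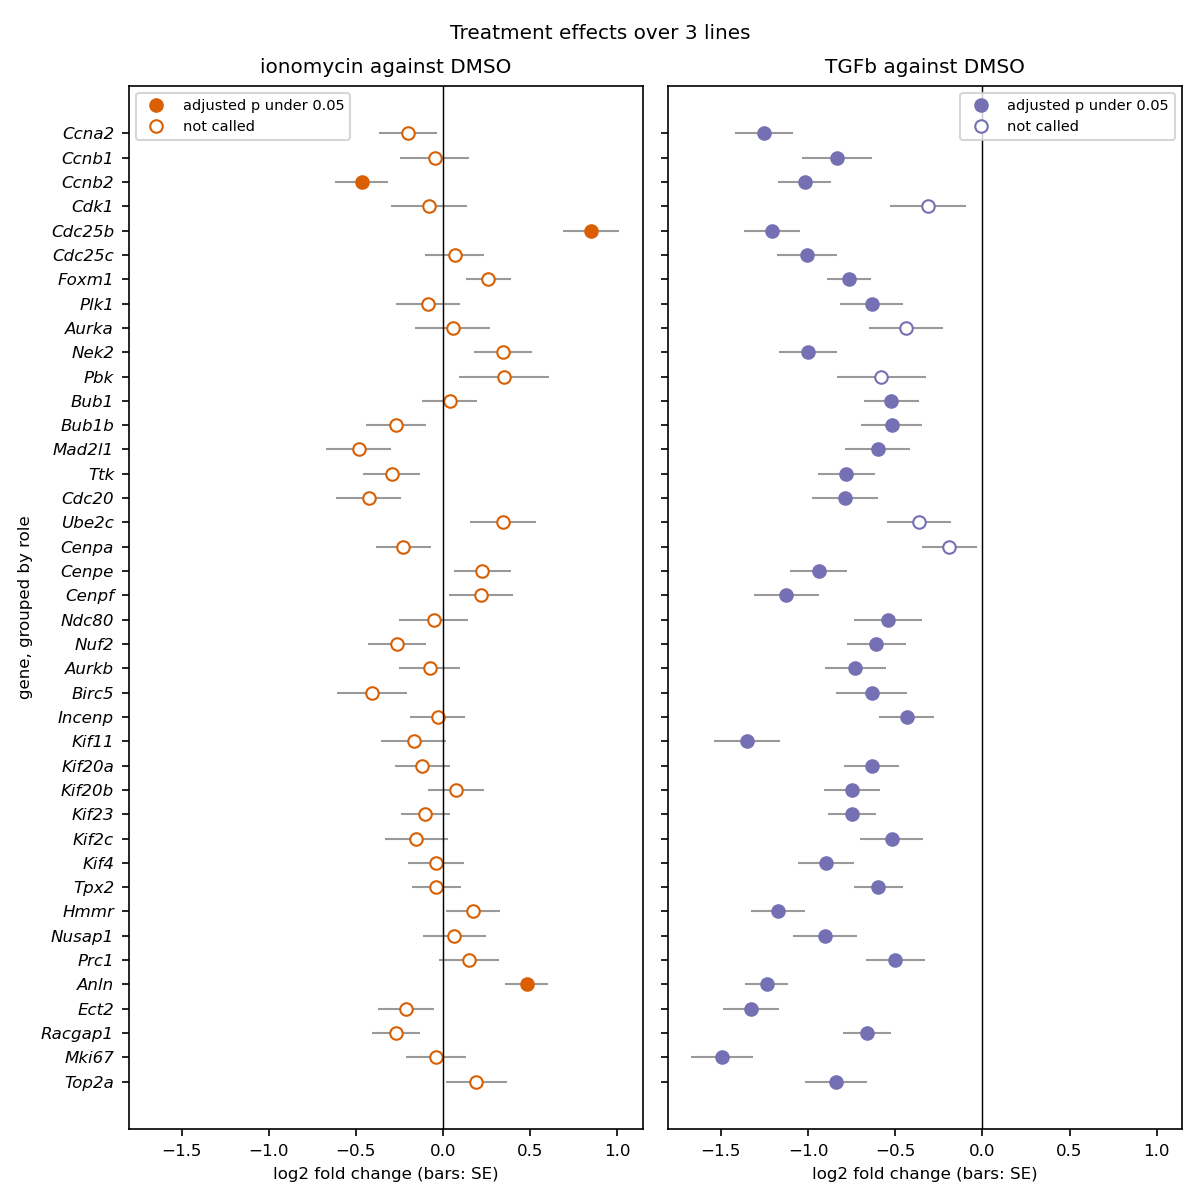
Log2 fold change over the 3 lines (x axis) of each of the 40 genes (y axis, grouped by role) for ionomycin against DMSO (left) and TGFb against DMSO (right), with bars for the SE. Filled points passed an adjusted p under 0.05, which 3 genes did with ionomycin and 35 with TGFb, and every TGFb point lies left of 0.

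The members next in order with ionomycin were not called. Mad2l1, with the largest negative estimate, had a log2 fold change of -0.48 ± 0.19 (adjusted p = 0.0531) and Cdc20 one of -0.43 ± 0.19 (0.0862). Nek2 stood at 0.35 ± 0.17 (0.115), Foxm1 at 0.26 ± 0.13 (0.123) and Birc5 at -0.41 ± 0.20 (0.128). Mki67 stood at 344, 595 and 764 CPM with ionomycin, against 322, 607 and 888 CPM with DMSO, a log2 fold change of -0.04 ± 0.17 (adjusted p = 0.877). Top2a stood at 562, 690.0 and 983 CPM with ionomycin, against 430.1, 632 and 811 CPM with DMSO, a log2 fold change of 0.19 ± 0.18 with an adjusted p = 0.424. The log2 fold changes of the other regulators were -0.05 ± 0.20 for Ccnb1, -0.08 ± 0.22 for Cdk1, 0.07 ± 0.17 for Cdc25c, -0.09 ± 0.18 for Plk1, -0.08 ± 0.18 for Aurkb and 0.34 ± 0.19 for Ube2c. The remaining members, none of them called, ranged from -0.29 for Ttk to 0.35 for Pbk.

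The 3 lines differed in sign with ionomycin. In PD454 28 of the 40 estimates were negative and the median log2 fold change was -0.29. In PD7591 36 were negative and the median was -0.39, while in PD883 38 were positive and the median was 0.52. Only 3 members were positive and 2 negative in all 3 lines, 7.5% and 5.0% of the members, against 25.0% and 27.4% of all genes tested. In PD454 1 member rose (background 11.7%) and none fell (background 9.34%). An unadjusted p under 0.05, in either direction, was found for 7 members in PD454, 12 in PD7591 and 21 in PD883. No share over all genes is given for that threshold. In PD7591 none rose (background 11.2%) and 3 fell (background 7.41%), and in PD883 10 rose (background 11.6%) and none fell (background 10.9%). These counts are from edgeR. DESeq2 gave 2 lower in PD454 and 6 lower in PD7591, for which the share of all genes is not given.

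In PD883 Cdc25b stood at 221 and 174 CPM with ionomycin, against 54.6 and 77.9 CPM with DMSO, a log2 fold change of 1.57 ± 0.17 (adjusted p = 2.85e-05). Nek2 stood at 186 and 172 CPM with ionomycin, against 69.7 and 105 CPM with DMSO, a log2 fold change of 1.03 ± 0.21 (adjusted p = 0.00305). Top2a stood at 946 and 983 CPM with ionomycin, against 430.1 and 629 CPM with DMSO, a log2 fold change of 0.86 ± 0.18 (adjusted p = 0.00337). In these 3 genes, and in further members named below, both ionomycin libraries lay above both DMSO libraries. The other members that rose in PD883 were Ube2c (0.95), Anln (0.83), Prc1 (0.76), Kif20b (0.71), Cenpe (0.65), Incenp (0.64) and Kif4 (0.61), given as log2 fold changes. In PD454 Cdc25b alone rose, with a log2 fold change of 0.65 ± 0.17 (adjusted p = 0.0142). In PD7591 the 3 members that fell were the checkpoint gene Bub1b (-0.79 ± 0.23, adjusted p = 0.0267), Kif11 (-0.78 ± 0.22, adjusted p = 0.0248) and Ect2 (-0.67 ± 0.22, adjusted p = 0.0421). Kif11 stood at 142 and 128 CPM with ionomycin in that line, against 238 and 227 CPM with DMSO.

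**Figure D5:**
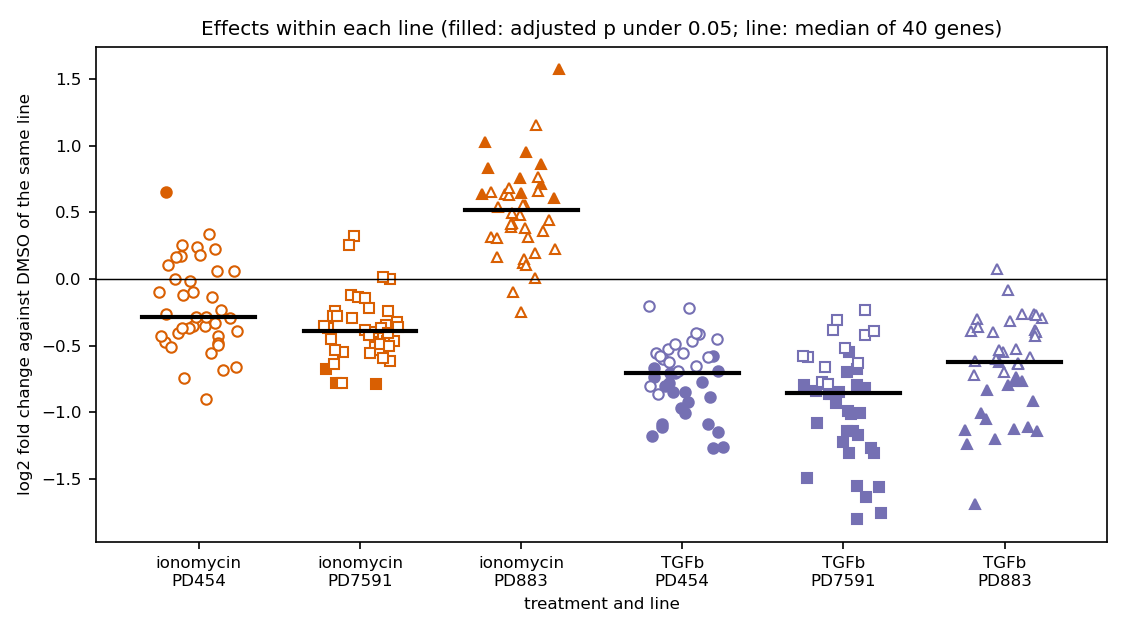
Log2 fold change of the 40 genes against DMSO of the same line (y axis) for ionomycin (orange) and TGFb (purple) in each line (x axis), with filled points for an adjusted p under 0.05 and a black bar at the median of the 40. The ionomycin medians are -0.29, -0.39 and 0.52 in PD454, PD7591 and PD883, and the TGFb medians are -0.71, -0.86 and -0.62.

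A single test over the 3 lines (2 degrees of freedom) of whether the ionomycin effect was equal called Cdc25b and Top2a (adjusted p = 0.0266 each), 2 of 40 members against 2.59% of all genes tested. At an unadjusted p under 0.05 there were 22 members. The share of all genes at that threshold is not given here, so the 22 have no background. DESeq2 called 10 members, and it also called more of all genes than edgeR did, with both counts given in the last section. The members next in order were Kif4 (adjusted p = 0.0583), Incenp (0.0627), Kif11 (0.0669) and Nek2 (0.0737). Top2a stood at 722 and 658 CPM with ionomycin in PD454, against 636 and 598 CPM with DMSO, and at 562 and 571 CPM with ionomycin in PD7591, against 811 and 795 CPM with DMSO. The log2 fold changes of Top2a were 0.16 ± 0.18 in PD454, -0.50 ± 0.18 in PD7591 and 0.86 ± 0.18 in PD883.

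The PD883 result rested on its DMSO libraries. Counts of the fits below are given without the share of all genes called in the same fit. They show how far the counts moved and are not a result about the members alone. Without DMSO PD883 7, the lower of the 2, 3 members rose with ionomycin in PD883 and the joint test called 0 members (adjusted p = 0.0742 for Cdc25b and 0.0610 for Top2a). Without DMSO PD883 8, the one rich in short transcripts, 27 members rose and the joint test called 22, and with all 4 short-transcript libraries left out the numbers were 38 and 38. Leaving out ionomycin PD883 9 or ionomycin PD883 10 left 4 members higher in PD883 in each case. In the fits that left out 1 library the joint test kept Cdc25b in 10 of 18 and Top2a in 7 of 18. Both DMSO PD883 libraries stood below both ionomycin PD883 libraries for Cdc25b, Nek2 and Top2a, and also for further members such as Ccnb1, Foxm1, Plk1, Kif11 and Anln. In these genes the direction did not depend on which of the 2 was used. Other members, such as Ccna2, Cdk1, Cdc20 and Mki67, overlapped between ionomycin and DMSO in PD883. The share of all genes with this pattern in PD883 is not given here.

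The lines themselves differed with DMSO. Over the 3 lines (2 degrees of freedom) a joint test called 21 of the 40 members, against 47.9% of all genes tested, so the share lay near the background. The direction was uneven. In PD454 against PD883, 23 members were higher and none lower (background 17.4% and 17.9%), with a median log2 fold change of 0.74. In PD7591 against PD883, 14 were higher and none lower (background 15.7% and 18.4%), with a median of 0.54, and in PD454 against PD7591 none was called in either direction (background 11.6% and 9.97%). Foxm1, which had the smallest p, stood at 391 and 340.2 CPM in PD454, 276 and 259 CPM in PD7591 and 104 and 162 CPM in PD883, a log2 fold change of 1.46 ± 0.21 for PD454 against PD883 (adjusted p = 1.78e-04) and 1.01 ± 0.21 for PD7591 against PD883 (adjusted p = 0.00241). Incenp (adjusted p of the joint test 0.00114), Kif20b (0.00127) and Kif11 (0.00132) came next, and each was lowest in PD883. The share of all genes is not given for the fits with a library left out that follow. Their counts show only how far the number moved and are not a result about the members alone. The joint test called 7 members without DMSO PD883 7 and 35 without DMSO PD883 8.

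Ionomycin and TGFb were also compared with each other. Of the 40 members 31 were higher with ionomycin than with TGFb and none was lower, while 31.0% of all genes tested were higher and 31.9% lower. The median log2 fold change was 0.65, against -0.04 over all genes. All 6 ionomycin libraries lay above all 6 TGFb libraries for 13 members, a pattern of 14.7% of all genes, and the duplicates lay above in each line for 29 members, a pattern of 23.1% of all genes. Cdc25b showed the largest difference, with 102, 163 and 221 CPM with ionomycin, against 27.9, 35.2 and 49.9 CPM with TGFb, a log2 fold change of 2.06 ± 0.17 (adjusted p = 5.14e-09). Anln came next, with 298, 389 and 471 CPM with ionomycin, against 77.7, 128 and 173 CPM with TGFb, a log2 fold change of 1.72 ± 0.12 (adjusted p = 1.26e-09). Neither gene had overlapping ranges. The further members with the smallest p were Hmmr (1.35 ± 0.16), Mki67 (1.45 ± 0.18), Nek2 (1.35 ± 0.17), Foxm1 (1.03 ± 0.13), Cenpf (1.34 ± 0.19) and Cenpe (1.16 ± 0.17), given as log2 fold changes. The members not called were Aurka (0.50, adjusted p = 0.0520), Nuf2, Kif2c, Cdc20, Bub1b, Birc5 (0.23 ± 0.20), Cdk1 (0.23 ± 0.22), Mad2l1 and Cenpa, whose log2 fold change of -0.04 ± 0.16 (adjusted p = 0.840) was the only negative one.

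Levels per exon length spanned more than 10-fold among the members with DMSO. On the scale of CPM per kilobase of merged exons Cdc20 was highest with DMSO, at 70.5 with ionomycin, 56.5 with TGFb and 98.1 with DMSO. Top2a was second with DMSO and highest with ionomycin, at 82.1 with ionomycin, 40.3 with TGFb and 72.1 with DMSO. Ndc80 was lowest with DMSO, at 6.07 with ionomycin, 4.30 with TGFb and 6.26 with DMSO. Merged exons include alternative ends, so these values understate genes with long unused exons. Across the 40 members the TGFb log2 fold change and log2 exon length correlated at r of -0.27 (rho of -0.23), against an r of -0.01 across 13715 genes. The points share the same libraries, and the median was -0.77 for the 19 longer members and -0.64 for the 21 shorter ones.

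Genes of neighbouring steps were listed beside the members, and their counts stand against the 24.3% of all genes that rose and 26.5% that fell with TGFb, and the 17.2% that rose and 16.1% that fell with ionomycin. Of 66 other mitosis genes 51 fell and 2 rose with TGFb, with a median log2 fold change of -0.71, and 8 fell and 2 rose with ionomycin, with a median of -0.11. Psrc1, a spindle protein (-2.36 ± 0.18), the centromere gene Cenpm (-2.11 ± 0.18) and the kinesin Kif15 (-1.17 ± 0.17) had the smallest p among those that fell with TGFb, and the kinetochore gene Zwint (0.54 ± 0.11) and Cks1b (0.46 ± 0.18), which binds CDKs, rose. With ionomycin Melk (-0.76 ± 0.16), Kif15 (-0.73 ± 0.17) and Spc24 (-0.64 ± 0.15) fell, and Cenpm (0.54 ± 0.17) and Ckap5 (0.33 ± 0.12) rose. Of 38 replication genes 15 fell and none rose with ionomycin, with a median of -0.47, among them the DNA ligase Lig1 (-0.78 ± 0.13) and the uracil-DNA glycosylase Ung (-1.47 ± 0.26). With TGFb 14 replication genes fell, among them Rrm2 of ribonucleotide reductase (-1.63 ± 0.16), the polymerase subunit Pold1 (-0.72 ± 0.09) and Lig1 (-0.84 ± 0.13), and 1 rose, Rfc3 (0.57 ± 0.21), with a median of -0.33.

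Of 25 regulators of G1, 6 rose and 12 fell with TGFb, against 24.3% and 26.5% of all genes, so the share that rose lay at the background. With ionomycin 6 rose and 6 fell, against 17.2% and 16.1% of all genes. The CDK4 and CDK6 inhibitor Cdkn2b, a known target of TGFb, rose with TGFb by 1.57 ± 0.10 (adjusted p = 2.66e-10) and fell by 0.42 with ionomycin (adjusted p = 0.00287). Cdkn2a (0.56 ± 0.10) and Cdk4 (0.48 ± 0.11) also rose with TGFb, while the inhibitors Cdkn2c (-1.95 ± 0.17) and Cdkn1b (-1.16 ± 0.11) and the activator E2f2 (-2.10 ± 0.21) fell. With ionomycin Myc (0.65 ± 0.14), cyclin D2 (Ccnd2, 0.65 ± 0.19) and the MuvB subunit Lin52 (0.72 ± 0.21) rose, and Cdkn2a (-0.67 ± 0.10) and Cdk4 (-0.50 ± 0.11) fell along with Cdkn2b. All values of these lists are log2 fold changes over the 3 lines with their SE, and the lists were not tested as sets.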

How the data were processed

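The authors deposited a table of raw read counts per gene for 18 libraries, unnormalized. Per the submitters' processing notes, CASAVA, Trimmomatic 0.32, STAR and featureCounts were used with build mm10, and the strand setting of the counting is not given in the sources used here. From these deposited counts, genes were filtered with filterByExpr, scaled with TMM and tested with edgeR 4.0.16 (R 4.3.3), by robust quasi-likelihood F tests with Benjamini-Hochberg adjustment over all 13827 genes and a threshold of 0.05. A model with treatment and line gave the 3 contrasts over lines, and a model of the 9 groups gave the contrasts within lines and the joint tests over lines. An SE is the size of the log2 fold change divided by the root of F. Entries with date-like names numbered 26. Genes given with levels for TGFb against DMSO, and with at least a log2 fold change for ionomycin against DMSO, were Mki67, Top2a, Ccnb1, Cdk1, Plk1, Aurkb, Birc5, Ube2c, Foxm1 and Cdc25c. Besides these, each contrast names the 8 members with the smallest p, the largest rise and fall, and called members that go against their role group. The tests between lines name 6 members, the DMSO comparison 4, and each other list up to 3 called genes per direction. Further members are named to account for all 40. The members and lists were chosen with earlier results of these data known. Alternatives used DESeq2 1.42.0, limma 3.58.1 and other scalings, filters, models and left-out libraries. The analysis code was tested on simulated data. Exon lengths come from GENCODE vM21 and promoters from RefSeq (GRCm38.p6). Exons of 13 members overlap another annotated gene, on the opposite strand for 11, and 3 have a named pseudogene.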

Additional observations from a re-analysis of the deposited data

Results flagged for a closer look

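In 120 combinations of a gene and a treatment, each with 6 libraries, 3 had a library far from the other 5. Chance would give about 1 in 20 for 6 libraries of 1 kind, while these were pairs from 3 lines. The 3 are fewer than that rate gives, so they are listed as a description only. Mki67 reached 471 CPM in TGFb PD454 17, Aurkb was at 23.1 CPM in TGFb PD883 11, and Ccnb2 reached 143 CPM in DMSO PD883 8. The effect of ionomycin differed between the 3 lines for Cdc25b and for Top2a in the joint test of edgeR (adjusted p = 0.0266 for each).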

How the results depend on the processing

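No paired analysis was possible because the library numbers in the labels are not shared between groups. The range over 18 fits that each left out 1 library is given first. Over the lines, the number of members higher with ionomycin against DMSO stayed at 2, and the number lower ran from 0 to 9. With TGFb against DMSO 30 to 39 were lower, and 26 to 35 were higher with ionomycin against TGFb. Within PD454 0 to 1 were higher and 0 to 4 lower with ionomycin, within PD7591 0 to 9 were lower and within PD883 3 to 27 were higher. With TGFb 10 to 26 were lower in PD454, 17 to 32 in PD7591 and 9 to 33 in PD883. The joint test called 0 to 22 members for ionomycin, 0 to 1 for TGFb and 7 to 35 for DMSO. Other settings moved these numbers as follows, and the cause was not tested. Unless stated, the share of all genes called in the same setting is not given, here or above. Such numbers show how far a count moved and have no background of their own. With library totals, ionomycin gave 3 lower over the lines, 2 lower in PD454 and 4 higher in PD883, where 45.1% and 39.0% of all calls in PD454 and PD883 were higher, against 55.6% and 51.4% with TMM factors. With no low-count filter ionomycin gave 2 lower in PD454, 7 lower in PD7591 and 18 higher in PD883, and the joint test called 17 for ionomycin and 1 for TGFb. DESeq2 gave 2 lower over the lines, 2 lower in PD454, 6 lower in PD7591 and 10 in the joint test for ionomycin, where it called 1296 of all genes against 358. A length offset gave 2, 1 and 5 lower in the same order. Without the 4 libraries rich in short transcripts ionomycin gave 0 lower over the lines, 5 lower in PD454, 26 lower in PD7591 and 38 higher in PD883, and the joint tests called 38 for ionomycin, 2 for TGFb and 39 for DMSO. In that setting Birc5 within PD883 had a log2 fold change of 0.67 with ionomycin (adjusted p = 0.0136), against -0.10 with all libraries. Without DMSO PD883 7 and TGFb PD883 11, a setting added after seeing the data, ionomycin gave 13 lower over the lines, 11 in PD454 and 17 in PD7591, and 3 higher in PD883. With no line term ionomycin gave 1 higher and 0 lower, with the mean per group 2 lower and with duplicates summed 0 lower. With a log2 fold change of at least 1 it gave 0 higher and 0 lower, TGFb 11 lower, and ionomycin against TGFb 13 higher. Without PD454 or PD7591 ionomycin gave 0 lower, and without PD883 20 lower. With the libraries of a line alone it gave 1 lower in PD454, 1 higher and 27 lower in PD7591 and 1 higher in PD883, and TGFb gave 10 lower in PD883. In all settings run, no member was higher with TGFb over the lines.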
